A study of Mus musculus with 18 samples.

Results

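In the mouse gene nomenclature, a symbol that ends in -ps, with or without a number, marks a pseudogene of the gene named before it or of a gene family. The loci described here are those of the deposited table whose symbols, split on commas, include at least 1 of this form. They numbered 1458 of 168136 loci, and of 52179 loci that carry any symbol. The rule used symbols alone and no measured value.

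RNA was collected on streptavidin beads from Neuro2A (N2A) cells, a mouse neuroblastoma line of the labelled genotype WT, to look for RNA bound by miR-92b in the nucleus. There were 6 groups of 3 libraries: nuclear and whole cell lysates of untransfected cells (control), of cells transfected with a biotinylated scrambled mimic at 25 nM (Scr), and of cells transfected with a biotinylated miR-92b mimic at 25 nM. By the protocols in the labels, all libraries passed through the same pull-down and oligo-dT selection and were prepared with a stranded kit, so that the untransfected groups hold RNA that the beads kept with no biotinylated mimic. The values are therefore pull-down levels and not total RNA levels, and a transfected mimic is not the endogenous miRNA. Samples for an RT-qPCR check of the pull-down are described as coming from separate experiments, whereas the sequenced libraries are described only as samples of a group. If these do not come from separate cultures, p-values measure only the spread between libraries, which may be technical.

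Pseudogenes are copies of genes that no longer code for the parent protein. Processed pseudogenes arise when an mRNA is reverse transcribed and inserted back into the genome, so they lack the introns of the parent and often lie in or near an unrelated gene. Unprocessed pseudogenes arise by duplication and keep the exon and intron pattern of the parent, and unitary pseudogenes are genes that decayed without a functional copy elsewhere. Olfactory and vomeronasal receptor families hold many of the second kind, while ribosomal protein genes, which are short and highly expressed, left many of the first. A young processed copy has almost the same letters as the parent mRNA, so a short read can match both, and the sources used here do not say how the aligner placed such reads.

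The sequences of 4 pairs show how far a pseudogene can and cannot be told from its parent by its reads. Each stretch covers the same 60 aligned bases of pseudogene and parent, within the coding part of the parent. It is the gap-free window with the most differences, the first on ties, and so the least alike part rather than a typical one. The stretches are read from the GRCm38 genome with the GENCODE M21 annotation on the sense strand, 5′ to 3′, and capitals mark bases that differ. Rpl3-ps1 at chrX:13202571-13203780 is a processed copy of Rpl3, a protein of the large ribosomal subunit, and is shown because its reads cannot easily be separated from those of Rpl3. It differed from Rpl3 by 1 base in this stretch and by 2 bases over the whole alignment, with 99.8% identity.
Rpl3-ps1: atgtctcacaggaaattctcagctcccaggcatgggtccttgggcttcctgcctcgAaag
Rpl3: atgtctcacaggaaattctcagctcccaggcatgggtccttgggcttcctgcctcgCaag

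Rps23-ps1 at chr3:37714740-37715164 is a processed copy of Rps23, a protein of the small subunit, and had no difference from its parent mRNA in the stretch or in the whole alignment (100% identity).
Rps23-ps1: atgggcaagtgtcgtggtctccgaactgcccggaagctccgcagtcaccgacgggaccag
Rps23: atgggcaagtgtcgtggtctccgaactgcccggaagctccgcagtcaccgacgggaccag

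Dnmt3a-ps1 at chr3:77562600-77563870 is a processed copy of Dnmt3a, a DNA methyltransferase that sets new methylation marks, and is shown because it is far enough from its parent to be told apart. It had 15 differences in the stretch and 89.2% identity over an alignment that covered 60.1% of the pseudogene.
Dnmt3a-ps1: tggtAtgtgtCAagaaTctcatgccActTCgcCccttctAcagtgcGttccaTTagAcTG
Dnmt3a: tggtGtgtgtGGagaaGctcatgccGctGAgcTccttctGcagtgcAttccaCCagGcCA

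Pisd-ps1 at chr11:3125904-3131004 is an unprocessed copy of Pisd, the mitochondrial enzyme that makes phosphatidylethanolamine from phosphatidylserine. It showed 8 differences in the stretch and 94.1% identity over the whole alignment.
Pisd-ps1: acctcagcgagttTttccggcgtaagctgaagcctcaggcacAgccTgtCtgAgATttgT
Pisd: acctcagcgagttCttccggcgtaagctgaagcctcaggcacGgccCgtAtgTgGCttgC

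Of the 73 loci with enough reads to test, 39 could be aligned to a parent transcript over at least 100 columns, and the median identity was 96.5%, from 64.7% to 100%.

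Most of these pseudogenes gave no reads. Of 1458 loci, 360 (24.7%) had a read in some library and 1098 had none. A mean normalized count (the number of reads of a locus after division by a size factor of the library) of at least 1 was reached by 191 loci, and a mean of at least 10 by 73. These 73 (5.01%, against 29.9% of all loci with a symbol) were tested, and because the filter uses the mean over all 18 libraries, a locus read in few of them could pass only where it was high there. Pseudogenes that the annotation lists under other kinds of name had a similar pass share, 447 of 8788 loci (5.09%).

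The families differed in how many members were read. Of 531 chemosensory receptor loci (Olfr, Vmn1r, Vmn2r and Taar), 79 had a read and 12 were tested. Of 279 ribosomal protein loci, 112 had a read and 22 were tested. Genes of metabolism and mitochondria had 17 of 30 loci with a read and 3 tested, and zinc finger genes 6 of 14 with a read and 4 tested. Xenobiotic enzymes and secreted proteins had 4 of 101 loci with a read, histone and chromatin genes 8 of 22, RNA binding proteins 2 of 7, translation factors 2 of 7, and antigen receptor and MHC genes 2 of 4, with none of these tested. All other parents had 463 loci, with 128 read and 32 tested. Among untested loci the highest means were 9.95 for Slfn10-ps, 9.92 for Rpl10-ps3 and 9.66 for Vmn2r-ps159, all just under the limit of 10, and the histone copy Hist3h2bb-ps followed in its family at 7.08.

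Chemosensory pseudogenes took 51.6% of all reads on these loci, all other parents 28.2%, ribosomal proteins 12.4%, metabolism 5.97% and zinc fingers 1.73%. All 1458 loci together held 0.325% to 0.471% of the reads on loci with a symbol in the nuclear libraries and 0.160% to 0.297% in the whole cell libraries, so the ranges did not overlap. Olfr289-ps1 alone made up 28.7% to 42.5% of these reads in nuclear and 17.9% to 35.7% in whole cell libraries. Without it, the share was 0.231% to 0.271% in nuclear and 0.131% to 0.207% in whole cell libraries, which also did not overlap. In these bulk libraries fewer cells with an RNA and less of it per cell cannot be told apart.

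Reads on loci with a symbol ranged from 3752991 to 22920038 per library. Nuclear RNA markers were higher in the nuclear libraries (2 of 3 tested; Malat1 log2 change 1.08, Neat1 1.06) and all 3 cytoplasmic markers were lower (Gapdh -2.35). Of 10 neuroblastoma markers 9 passed the filter, with a summed FPKM of 128 to 181 in nuclear and 157 to 219 in whole cell libraries. Summed FPKM stayed at or under 7.55 for glial, 2.35 for blood and immune, and 4.73 for fibroblast markers. The third whole cell miR-92b library stood apart from the other 2 of its group, with a chi-square per degree of freedom of 116 and 122 against at most 56.3 in every other pair of replicates, and counts and medians that moved with it are also given without it.

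A locus of the deposited table is an assembled unit and need not be the annotated pseudogene. The strand of each locus was read from the order of locus numbers, which matched the annotation for 39860 of 39867 known loci. The transcript length behind each FPKM value (fragments relative to transcript length and to all mapped fragments) was estimated from the ratio of normalized count to FPKM. The median error was 18.4% on 947 loci of known length. These loci also set the scale, and they spanned a limited range of lengths. By these measures 43 of the 73 tested loci were on the strand of the pseudogene and at most 2 times its exonic length, 11 were on its strand but longer, 10 were on the opposite strand, and 9 were joined with another gene. Another gene overlapped 38 of the 73, and 25 lay in an intron of another gene. The annotation lists 30 of them as processed, 19 as unprocessed and 10 as transcribed unprocessed pseudogenes, and 4 (Rps12-ps3, Olfr718-ps1, Ftl1-ps1 and Rpl9-ps6) as protein coding. The sorting by unit was made after the values were seen and is a description.

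The 11 longer units held 48.0% of the normalized counts of tested loci, the 43 matching units 29.5%, the 10 opposite-strand units 12.3% and the joined units 10.2%. The implied length was over 2 times the annotated length in 26 loci and over 5 times in 12. For Olfr289-ps1, annotated with 369 bases, the implied length was 8991 bases, 24.4 times the annotation. Olfr277-ps1, annotated with 285 bases, had an implied length of 17345 bases, 60.9 times the annotation, on the strand opposite to the annotated pseudogene and on that of Fgf14, in whose intron it lies. Anp32-ps, with 388 bases in an intron of Ranbp17 on the same strand, had 6179 bases (15.9 times). The implied lengths of Olfr289-ps1, Olfr277-ps1 and Anp32-ps lie above the lengths on which the scale was set. They are extrapolated, and the stated error does not cover them. Of the 12 most-read loci with no other symbol, 3 were longer and 2 were opposite-strand units. On which bases of such a unit the reads lay is not shown by the deposited values.

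**Figure D1:**
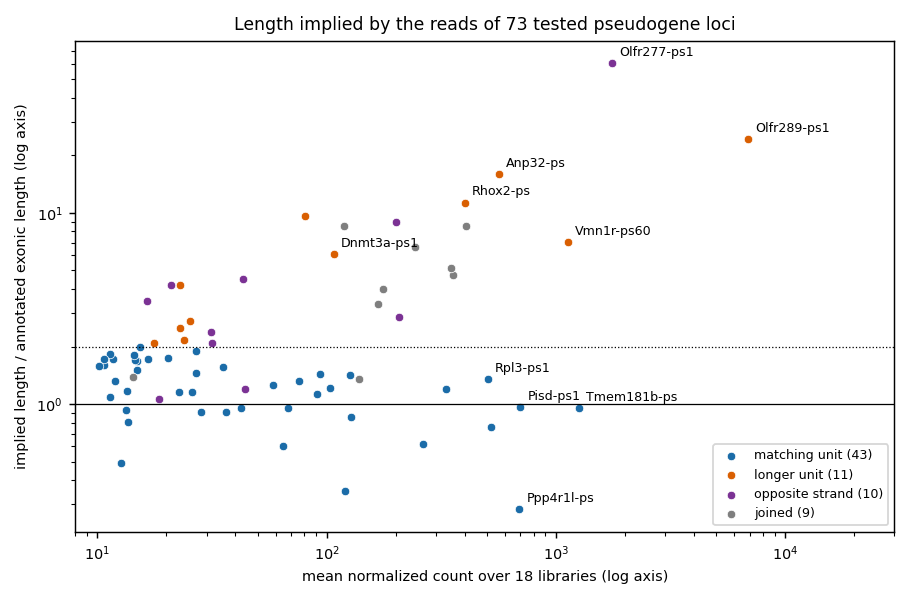
Implied over annotated length of the 73 tested pseudogene loci (y axis, log scale) against the mean normalized count over 18 libraries (x axis, log scale), coloured by the kind of unit. The 43 matching units lie under 2, while Olfr289-ps1 and Olfr277-ps1, at the right, lie at 24.4 and 60.9.

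There were 20 symbols with loci on both strands, and 15 of these had a read on each. Of the 8 symbols with a mean of at least 10 on either strand, the opposite-strand locus was the higher in 7. Rpl7a-ps9, a copy of the large subunit gene Rpl7a in an intron of Cpeb1, had a mean count of 207 on the opposite strand and 35.2 on its own. Rps12-ps3, in an intron of Pdzd8, had 201 on the opposite strand and 8.61 on its own. Tmem181b-ps was the reverse, with 1262 on its own strand and 2.19 on the other.

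To ask where these RNAs were held in the cell, nuclear were compared with whole cell libraries over the 3 treatments. More pseudogene loci were higher in the nuclear libraries than lower. Of 73 tested loci, 23 (31.5%) were called higher, against a background of 15.3% of all tested loci, and 6 (8.22%) were called lower, against 15.8%. The remaining 44 did not pass the threshold (limma, adjusted p under 0.05). In direction alone 60 of 73 (82.2%) were higher, against 56.6% of all loci, and the median log2 change was 0.72, against 0.14. Of 447 tested pseudogenes under other names 364 (81.4%) were higher in direction, with a median of 0.84, and 89 (19.9%) were called higher. These shares moved with the filter on low counts. With a mean of at least 1, 25 of 191 pseudogene loci (13.1%) were called higher, against 10.3% of all loci, and the medians were 0.56 and 0.20. With no filter 26 of 360 (7.22%) were called higher, against 7.19%, and the medians were 0.19 and 0.17. With no filter the share called higher was close to the background. The shares called lower were 4.71% (against 10.2%) and 2.5% (against 7.55%) under these filters. No test of the list was made.

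The calls differed with the family of the parent. All 6 lower calls were ribosomal protein copies, and of 22 tested copies of this family 5 were called higher, 6 lower and 11 were not called. Among 12 chemosensory loci 5 were called higher and none lower, with 11 of 12 above 0. In the 32 loci of other parents 11 were called higher and none lower, and 2 of 3 metabolic loci (both Pisd copies) were called higher. All 4 zinc finger loci lay above 0 and none was called.

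The kind of unit also moved with the result. Matching units had 11 higher and 4 lower calls of 43, longer units 7 and 1 of 11, opposite-strand units 4 and 0 of 10, all 10 above 0, and joined units 1 and 1 of 9. With only the 64 unjoined loci the counts were 22 and 5, and the median was 0.80.

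**Figure D2:**
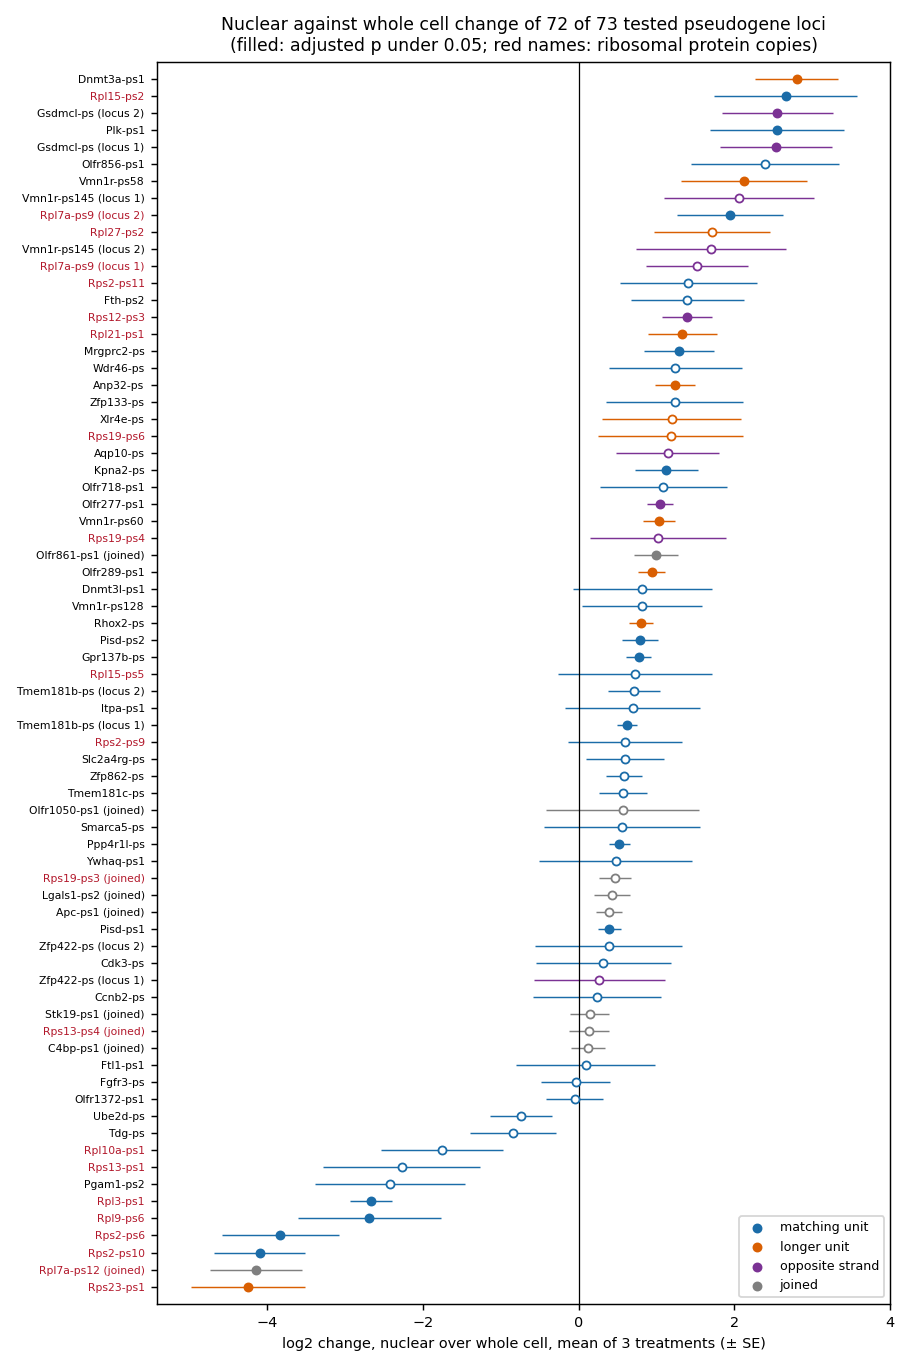
Log2 change of nuclear over whole cell libraries with its SE for 72 of the 73 tested pseudogene loci in order of size, filled where the adjusted p passed 0.05. Ribosomal protein copies, named in red, fill most of the lower end down to -4.25 and also lie near the top, with Rpl15-ps2 at 2.66.

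The 12 most-read loci with no other symbol opened with the chemosensory receptors. Olfr289-ps1, at chr3:6751704-6752072 and named for an olfactory receptor, was the most-read of all. Olfr289-ps1 gave 6286, 10459 and 9679 in the control, 6902, 10104 and 11845 with Scr and 5424, 9702 and 10479 with miR-92b in the nuclear libraries. For Olfr289-ps1, the whole cell libraries held 4878, 4569 and 4124 in the control, 5882, 5172 and 5792 with Scr and 5143, 5196 and 1919 with miR-92b. The lowest value was in the third miR-92b whole cell library, and the groups overlapped, since the lowest nuclear library, the first with miR-92b, lay below 2 of the 3 Scr whole cell libraries. The log2 change was 0.94 ± 0.18 (SE), a 1.92-fold higher level in nuclear libraries (limma, adjusted p = 0.000272).

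Olfr277-ps1 gave 2478, 2846 and 1941 in the control, 2019, 2698 and 2266 with Scr and 1627, 2486 and 2725 with miR-92b in the nuclear libraries. For Olfr277-ps1, the whole cell libraries held 1023, 1078 and 1292 in the control, 1370.3, 1449 and 1389 with Scr and 1518, 1028 and 443 with miR-92b. All 9 nuclear values were above all 9 whole cell values of this locus, on the Fgf14 strand, which occurred in 3 of the 73 loci and in 2.91% of all tested loci. On the log2 scale the difference was 1.05 ± 0.17, 2.06-fold (limma, adjusted p = 4.23e-05).

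Vmn1r-ps60, a vomeronasal receptor copy at chr7:12005066-12006310, was also a longer unit, 7.02 times its annotation. Vmn1r-ps60 gave 1099, 1501 and 2219.7 in the control, 1044, 1274 and 1948 with Scr and 1584, 1396 and 1388 with miR-92b in the nuclear libraries. For Vmn1r-ps60, the whole cell libraries held 830.2, 809 and 695 in the control, 1054, 638 and 919.8 with Scr and 899.9, 792 and 224 with miR-92b. Nuclear values lay above the whole cell values apart from the overlap of 1 Scr nuclear library with 1 Scr whole cell library. The fitted log2 change was 1.03 ± 0.21 (limma, adjusted p = 0.000495). The second locus of this subfamily called higher, Vmn1r-ps58, was much less read (mean 25.4, log2 change 2.13 ± 0.81, adjusted p = 0.0485 by limma).

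The unprocessed copies Tmem181b-ps, Pisd-ps1, Pisd-ps2, Gpr137b-ps and Ppp4r1l-ps were matching units, at most 2 times the annotated length. Their implied length ran from 0.28 times the annotation for Ppp4r1l-ps to 1.20 times for Gpr137b-ps. Tmem181b-ps, at chr17:6438524-6467022, is a copy related to a multi-pass membrane protein gene. Tmem181b-ps gave 1490.3, 1475 and 1914 in the control, 1475, 1610.1 and 1416 with Scr and 1324, 1495 and 1483 with miR-92b in the nuclear libraries. For Tmem181b-ps, the whole cell libraries held 863, 1105 and 861 in the control, 1212, 969 and 1025 with Scr and 1029, 1374 and 603 with miR-92b. The lowest nuclear value was below 1 miR-92b whole cell library and above the other 8. In log2 units the change was 0.62 ± 0.13 (limma, adjusted p = 0.000614).

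Pisd-ps1 and Pisd-ps2, at chr17:3076578-3084183, are copies of the phosphatidylserine decarboxylase gene. Pisd-ps1 gave 871, 744 and 764 in the control, 1001, 755 and 531 with Scr and 869, 754 and 827 with miR-92b in the nuclear libraries. For Pisd-ps1, the whole cell libraries held 619, 644 and 580.0 in the control, 579, 683 and 455 with Scr and 655, 892 and 380.5 with miR-92b. The compartments overlapped: the second miR-92b whole cell library was above 8 of the 9 nuclear libraries, and 1 Scr nuclear library was below 7 of the whole cell libraries. The change in log2 units was 0.39 ± 0.15 (limma, adjusted p = 0.0476), and the call was lost in 14 of the 18 fits that left out 1 library. Pisd-ps2 gave 583, 706 and 938 in the control, 622, 590.4 and 445 with Scr and 723, 533 and 625 with miR-92b in the nuclear libraries. For Pisd-ps2, the whole cell libraries held 395, 473 and 392 in the control, 473, 345 and 331 with Scr and 535, 531 and 99.4 with miR-92b. Nuclear values again overlapped with those of the whole cell, whose lowest was the third miR-92b library. The log2 change of Pisd-ps2 was 0.79 ± 0.23 (limma, adjusted p = 0.0123), and 0.52 without that library, still called.

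Gpr137b-ps, an unprocessed copy of a lysosomal membrane protein gene, lies on chromosome 13 at chr13:12615057-12650388. Gpr137b-ps gave 306, 454 and 256 in the control, 372, 558 and 535 with Scr and 365, 485 and 454 with miR-92b in the nuclear libraries. For Gpr137b-ps, the whole cell libraries held 298, 178 and 241 in the control, 186, 232 and 198 with Scr and 229, 284 and 352 with miR-92b. Overlap was limited to the lower nuclear and the higher whole cell values. Its log2 change was 0.77 ± 0.16 (limma, adjusted p = 0.000786). Ppp4r1l-ps, named for a regulatory subunit of protein phosphatase 4, followed at chr2:173579320-173659640. Ppp4r1l-ps gave 872, 839 and 522 in the control, 878, 874 and 743 with Scr and 664, 931 and 1035 with miR-92b in the nuclear libraries. For Ppp4r1l-ps, the whole cell libraries held 622, 611 and 546 in the control, 489, 500.2 and 714 with Scr and 631, 558 and 408 with miR-92b. The compartments overlapped through 2 nuclear libraries that fell among the whole cell values. The log2 change was 0.53 ± 0.14 (limma, adjusted p = 0.00468).

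Of 16 tested processed copies of genes other than ribosomal protein genes, 4 were called higher in nuclear libraries (Anp32-ps, Dnmt3a-ps1, Kpna2-ps and Plk-ps1), none was called lower and 12 were not called, with 3 of the 16 below 0. Over all tested loci 15.3% were called higher and 15.8% lower. Anp32-ps, named for a family of acidic nuclear phosphoproteins, had no overlap between compartments. Anp32-ps gave 791, 784 and 547 in the control, 838, 875 and 729 with Scr and 714, 869 and 737 with miR-92b in the nuclear libraries. For Anp32-ps, the whole cell libraries held 339.8, 460.0 and 315 in the control, 373, 375 and 509.9 with Scr and 497, 346 and 59.9 with miR-92b. The lowest nuclear value was above the highest whole cell value, and the third miR-92b whole cell library was the lowest of all. On the log2 scale the difference was 1.24 ± 0.26, 2.36-fold (limma, adjusted p = 0.000710).

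Dnmt3a-ps1 was the third locus with no overlap, and its unit was 6.10 times the annotated length. Dnmt3a-ps1 gave 165, 218 and 146 in the control, 166, 92.1 and 180.3 with Scr and 184, 242 and 226 with miR-92b in the nuclear libraries. For Dnmt3a-ps1, the whole cell libraries held 41.2, 36.3 and 39 in the control, 39.5, 43.5 and 30.4 with Scr and 63.9, 15.7 and 0 with miR-92b. Every nuclear value exceeded every whole cell value, of which the third miR-92b library had no read. The fitted log2 change was 2.81 ± 0.54, 6.99-fold (limma, adjusted p = 0.000317).

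The homeobox copy Rhox2-ps shares its locus with Rhox7-ps2 at chrX:37682921-37683431, in a unit 11.3 times the annotated length. Rhox2-ps gave 448, 539 and 584 in the control, 388, 445 and 537 with Scr and 514, 573 and 518 with miR-92b in the nuclear libraries. For Rhox2-ps, the whole cell libraries held 238, 317 and 258 in the control, 394, 270.4 and 337 with Scr and 319, 351 and 171 with miR-92b. Only 1 Scr whole cell library reached the nuclear range. In log2 units the change was 0.80 ± 0.15 (limma, adjusted p = 0.000284).

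Kpna2-ps is a copy of the nuclear import adaptor gene Kpna2. Kpna2-ps gave 121, 118 and 119 in the control, 83.8, 64.5 and 183 with Scr and 119, 135 and 117 with miR-92b in the nuclear libraries. For Kpna2-ps, the whole cell libraries held 89.4, 51 and 76.4 in the control, 82.4, 116 and 55 with Scr and 70.2, 34.3 and 5.10 with miR-92b. The 7 highest nuclear values exceeded every whole cell value, 2 Scr nuclear values did not, and the third miR-92b whole cell library was lowest. The change in log2 units was 1.13 ± 0.41 (limma, adjusted p = 0.0377), and the call was lost in 11 of 18 fits that left out 1 library. Plk-ps1, named for the polo-like kinases of cell division, was read at lower levels. Plk-ps1 gave 15.9, 13.4 and 117 in the control, 15.2, 24.2 and 50.4 with Scr and 36.9, 45.8 and 23.1 with miR-92b in the nuclear libraries. For Plk-ps1, the whole cell libraries held 0, 13.8 and 5.46 in the control, 0.877, 72.9 and 14.7 with Scr and 14.4, 0 and 0 with miR-92b. Its highest nuclear value was in 1 control library and 3 whole cell libraries had no read. Its log2 change was 2.55 ± 0.86 (limma, adjusted p = 0.0275), a call lost with edgeR, with DESeq2, with no filter and in 4 of 18 fits that left out 1 library.

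Zfp862-ps, a unitary zinc finger pseudogene, did not pass the threshold. Zfp862-ps gave 309, 251 and 343 in the control, 352, 300.4 and 382 with Scr and 250.0, 295 and 273 with miR-92b in the nuclear libraries. For Zfp862-ps, the whole cell libraries held 239, 193 and 254 in the control, 73.6, 168 and 334 with Scr and 281, 313 and 131 with miR-92b. The whole cell values spread over the nuclear range. The log2 change was 0.58 ± 0.23 (limma, adjusted p = 0.0555).

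Ribosomal protein copies went in both directions. Rpl3-ps1 was the most-read of them and had the lowest adjusted p of all 73 loci. Rpl3-ps1 gave 65, 98.2 and 179 in the control, 109.7, 123 and 229.5 with Scr and 99.7, 114 and 123 with miR-92b in the nuclear libraries. For Rpl3-ps1, the whole cell libraries held 1076, 664 and 1197 in the control, 387, 622 and 763 with Scr and 703, 361 and 2189.9 with miR-92b. All whole cell values exceeded all nuclear values, with the third miR-92b library highest. On the log2 scale the difference was -2.66 ± 0.27, 6.34-fold lower in nuclear libraries (limma, adjusted p = 7.84e-08). This order, all nuclear below all whole cell values, was seen in 4 of 73 loci and in 4.4% of all tested loci.

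Rps2-ps10, a copy of the small subunit gene Rps2, was another of the 4. Rps2-ps10 gave 13, 2.69 and 1.58 in the control, 10.7, 40.3 and 2.52 with Scr and 16.4, 14.8 and 5.14 with miR-92b in the nuclear libraries. For Rps2-ps10, the whole cell libraries held 132, 153 and 181 in the control, 56.1, 155 and 288 with Scr and 193, 78.5 and 333 with miR-92b. The highest nuclear value, in 1 Scr library, stayed below the lowest whole cell value, also in an Scr library. The fitted log2 change was -4.10 ± 0.58 (limma, adjusted p = 1.04e-05). Rps2-ps6, at chr14:76236691-76237545, is copied from the same parent. Rps2-ps6 gave 0, 8.07 and 3.16 in the control, 12.2, 0 and 50.4 with Scr and 8.20, 7.41 and 3.86 with miR-92b in the nuclear libraries. For Rps2-ps6, the whole cell libraries held 106, 103 and 122 in the control, 87.7, 18.2 and 126 with Scr and 49.5, 52.8 and 291 with miR-92b. An Scr library of each compartment crossed into the range of the other. In log2 units the change was -3.83 ± 0.76 (limma, adjusted p = 0.000439).

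Rps23-ps1, with letters identical to those of its parent, had few reads in nuclear libraries. Rps23-ps1 gave 1.44, 1.34 and 1.58 in the control, 4.57, 0 and 0 with Scr and 1.37, 2.69 and 0 with miR-92b in the nuclear libraries. For Rps23-ps1, the whole cell libraries held 48.2, 30.3 and 32 in the control, 45.6, 67.8 and 38.5 with Scr and 71.1, 5.71 and 75.2 with miR-92b. No nuclear value exceeded 4.57 and no whole cell value fell below 5.71. The change in log2 units was -4.25 ± 0.74 (limma, adjusted p = 0.000110), the lowest of the 73, and the unit also faces an exon of Gm5148. Since its nuclear values were all under 10, Rps23-ps1 passed the filter only through the whole cell libraries, where it was high. Rpl7a-ps12 shares its locus with Gm6472, so its values belong to both. Rpl7a-ps12 gave 4.33, 33.6 and 23.7 in the control, 0, 23 and 37.8 with Scr and 15, 23.2 and 7.72 with miR-92b in the nuclear libraries. For Rpl7a-ps12, the whole cell libraries held 258, 205 and 291 in the control, 174, 264 and 219 with Scr and 145, 177 and 595 with miR-92b. The compartments did not overlap. Its log2 change was -4.15 ± 0.59 (limma, adjusted p = 1.10e-05). Rpl9-ps6 was read in few libraries. Rpl9-ps6 gave 0, 0 and 0 in the control, 0, 15 and 0 with Scr and 0, 0 and 0 with miR-92b in the nuclear libraries. For Rpl9-ps6, the whole cell libraries held 27, 9.51 and 46 in the control, 0, 0 and 12.3 with Scr and 31.5, 0 and 51 with miR-92b. A read was seen in 1 nuclear and 6 whole cell libraries, so Rpl9-ps6 also passed the filter through its whole cell values. The log2 change was -2.69 ± 0.92 (limma, adjusted p = 0.0291), and the call was lost in 6 of 18 fits that left out 1 library, among them the one without the third miR-92b whole cell library.

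Of the ribosomal copies that were higher, Rpl15-ps2 lies in an intron of Tcf12 on the other strand. Rpl15-ps2 gave 36.1, 35 and 42.7 in the control, 35, 0 and 6.31 with Scr and 31.4, 38 and 21.9 with miR-92b in the nuclear libraries. For Rpl15-ps2, the whole cell libraries held 0, 6.05 and 8.57 in the control, 0, 21.3 and 0 with Scr and 17.1, 0 and 0 with miR-92b. The compartments overlapped through 2 Scr nuclear libraries, and Rpl15-ps2 passed the filter through its nuclear values. The fitted log2 change was 2.66 ± 0.92 (limma, adjusted p = 0.0302), and the call was lost with edgeR, with DESeq2, with no filter and in 8 of 18 fits that left out 1 library.

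Rpl21-ps1, at chr1:184617248-184617727, belonged to a unit 9.66 times the annotated length. Rpl21-ps1 gave 108, 126 and 229 in the control, 67, 61 and 54.2 with Scr and 109, 83.2 and 138 with miR-92b in the nuclear libraries. For Rpl21-ps1, the whole cell libraries held 103, 91.7 and 7.02 in the control, 70.1, 68.9 and 68.1 with Scr and 21.6, 15.7 and 22.3 with miR-92b. With Scr the 3 nuclear values all lay below the 3 whole cell values (log2 change -0.19), and in the control and with miR-92b every nuclear value was above the whole cell values of that treatment. In log2 units the change over all treatments was 1.33 ± 0.45 (limma, adjusted p = 0.0259), and the call was lost with FPKM and in 2 of 18 fits that left out 1 library. Rpl7a-ps9 was the last of the most-read loci, on the opposite strand of the pseudogene. Rpl7a-ps9 gave 208, 209.7 and 345 in the control, 315, 257 and 301 with Scr and 281, 261 and 203 with miR-92b in the nuclear libraries. For Rpl7a-ps9, the whole cell libraries held 112, 138 and 144 in the control, 90.3, 211 and 231 with Scr and 156, 264 and 0 with miR-92b. The third miR-92b whole cell library had no read, while the other whole cell values reached into the nuclear range. The change in log2 units was 1.52 ± 0.65 (limma, adjusted p = 0.0780) and was not called, but it was called at 0.67 without that library. The locus on the pseudogene's own strand was called at 1.95 ± 0.68 (limma, adjusted p = 0.0321).

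Gsdmcl-ps, a copy of a gasdermin gene, had the highest log2 change among the 10 opposite-strand units. Gsdmcl-ps gave 11.6, 22.9 and 31.6 in the control, 19.8, 28.8 and 53 with Scr and 23.2, 13.5 and 36 with miR-92b in the nuclear libraries. For Gsdmcl-ps, the whole cell libraries held 0, 15.6 and 0.780 in the control, 22.8, 33.4 and 20.2 with Scr and 0, 0 and 0 with miR-92b. All 9 nuclear libraries and 5 whole cell libraries had a read, and the 3 Scr and 1 of the control whole cell libraries reached the nuclear range. Its log2 change was 2.55 ± 0.71 (limma, adjusted p = 0.00836), and a second opposite-strand locus of the symbol gave 2.54 ± 0.72 (limma, adjusted p = 0.00910). The other called loci were Rps12-ps3 on the opposite strand (1.40 ± 0.32), Mrgprc2-ps (1.29 ± 0.45) and Olfr861-ps1, whose locus is joined (0.99 ± 0.28).

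**Figure D3:**
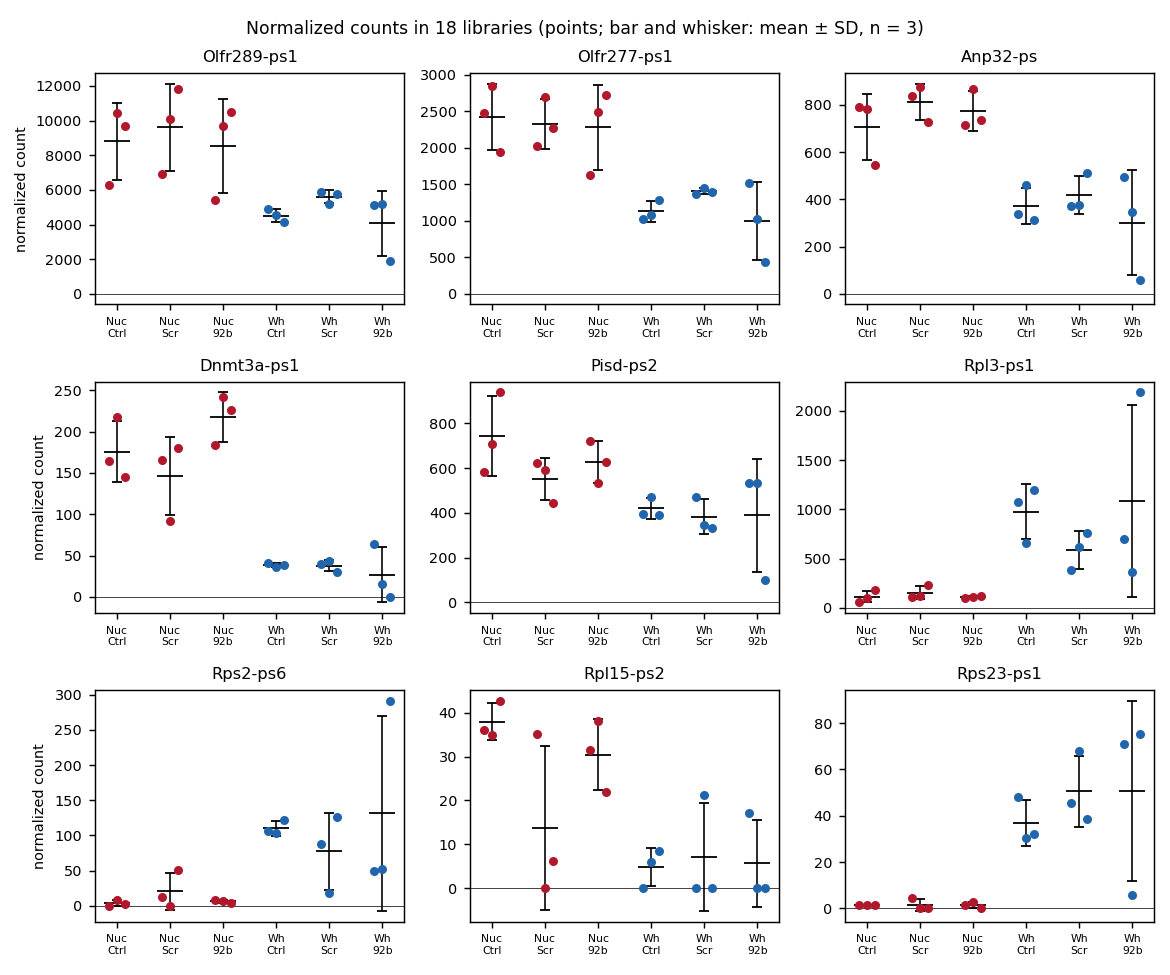
Normalized counts of 9 pseudogene loci in the 18 libraries (points), with the mean ± SD of each group of 3 as bar and whisker, nuclear groups in red and whole cell groups in blue. Olfr277-ps1, Anp32-ps and Dnmt3a-ps1 show no overlap with nuclear values above, and Rpl3-ps1 and Rps23-ps1 none with nuclear values below.

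The likeness to other transcripts moved with the direction. Of the 50-base words of each pseudogene, the share also found in annotated transcripts of genes elsewhere in the genome was 75% or more in 14 tested loci, of which 2 were called higher and 5 lower, with a median log2 change of -2.02. In the other 59 loci 21 were called higher and 1 lower, with a median of 0.81. Within ribosomal protein copies, the 11 with at least 75% of words shared had 2 higher and 5 lower calls, and the 11 below it had 3 and 1. Across these 22 copies Spearman's rho between the shared share and the log2 change was -0.49, a description over loci that share parents, libraries and depth. The words are those of the annotated pseudogene, also where the unit was longer, joined or on the opposite strand. Rps12-ps3, 1 of the 2 higher calls with at least 75% shared, was an opposite-strand unit, which its words do not describe. At loci with many shared words on the strand of the pseudogene, reads of the parent placed on the copy cannot be told apart from reads of the copy. The part of this in the calls was not tested.

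Within each treatment, with 3 libraries a side, the calls were fewer. In untransfected cells 3 loci were called higher and 4 lower, against 2.94% and 6.91% of all tested loci. With Scr there was 1 higher and 4 lower, against 1.46% and 3.7%. With miR-92b there were 10 higher and 4 lower, against 6.66% and 6.63%. Of the 29 loci called over all treatments, 27 had the same sign in each treatment, 22 of them higher and 5 lower. These loci were called on the mean of the same treatments, so the agreement in sign was partly set by the selection and is no separate support. The difference between the compartment changes with miR-92b and with Scr was called in none of the 73 loci. Without the third miR-92b whole cell library the miR-92b counts were 4 higher and 1 lower, and the higher counts in the control and with Scr were 9 and 9. The miR-92b higher count was 20 without the first miR-92b whole cell library, and the control higher count was 0 without the first control whole cell library. Over all treatments the counts without the third miR-92b whole cell library were 21 and 5, and all 29 called loci kept their sign. Among the named loci, those that lost the call without it were Pisd-ps1 (log2 change 0.28), Kpna2-ps (0.79), Rpl15-ps2 (2.43) and Rpl9-ps6 (-2.34).

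Of the 73 loci, 40 had a tested parent, the gene named before -ps, with 29 parents in all. The parents were mostly lower in nuclear libraries: 22 of 29 were called lower and 2 higher, with a median log2 change of -1.71. Over all tested loci 15.8% were called lower and 15.3% higher, with a median of 0.14. Of the 29 parents 13 were ribosomal protein genes, all called lower. The pseudogene locus lay above its parent on the log2 scale in 31 of 40 pairs and below in 9, with a median difference of 1.54. The pairs include longer, opposite-strand and joined units, whose values need not be those of the pseudogene. Among those above were Dnmt3a-ps1 (longer), Rps12-ps3 (opposite strand) and Rps19-ps3 (joined with Zfp933). Rps23-ps1 (longer) and Rpl7a-ps12 (joined) were below. The pairs were not split by kind of unit. In 9 pairs both were called in the same direction and in 7 in opposite directions. These are descriptions, and the difference within a pair was not tested.

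All 13 parents of the 22 ribosomal pairs were called lower, from -3.37 to -0.97. Copies of either direction therefore lay beside parents called lower. Among those called lower were Rpl3-ps1 (-2.66, Rpl3 -2.08), Rps23-ps1 (-4.25, Rps23 -3.37), Rpl9-ps6 (-2.69, Rpl9 -1.90) and Rpl7a-ps12 (-4.15, Rpl7a -2.46). Rpl15-ps2, with 98.7% identity, was called higher (2.66) beside Rpl15 at -2.37. The Rpl3 locus also holds a small RNA gene (Gm22077), which shares its values.

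**Figure D4:**
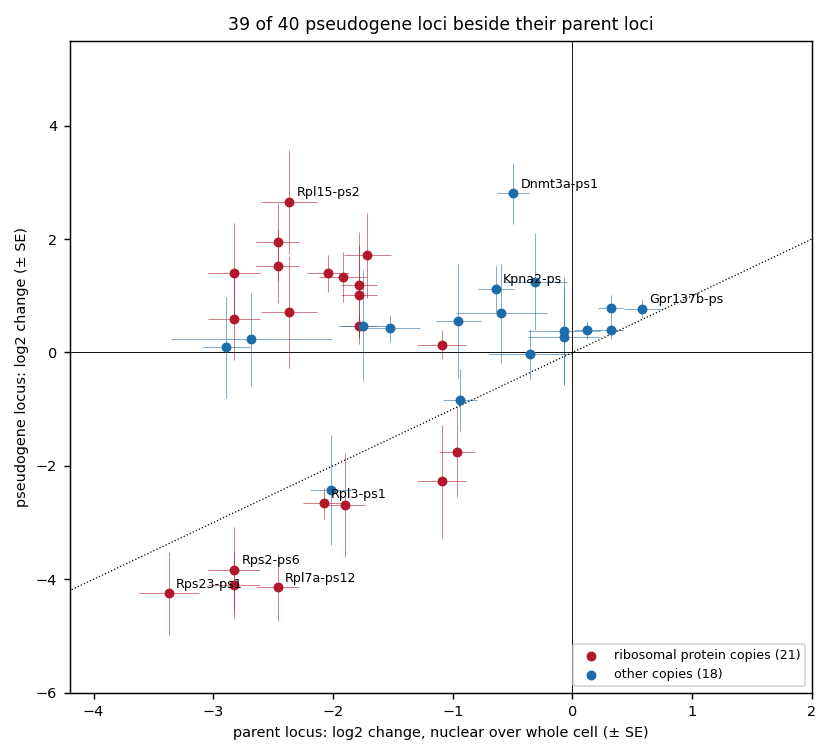
Log2 change of nuclear over whole cell libraries of 39 of the 40 pseudogene loci with a tested parent (y axis) against that of the parents (x axis), each with its SE, and the line of equal change. Most ribosomal pairs lie above the line, with parents between -3.37 and -0.97 and copies between -4.25 and 2.66.

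Levels were compared per length, in FPKM. In 35 of 40 pairs the pseudogene locus was below its parent in the nuclear mean and in 36 in the whole cell mean. The median level was 15.3% of the parent in nuclear and 2.75% in whole cell libraries. The longer, opposite-strand and joined units are in these numbers, with lengths and reads that need not be those of the pseudogene. For ribosomal copies the medians were 8.51% and 1.29%. Rpl3-ps1 had an FPKM of 12.9 ± 5.19 in nuclear and 92.2 ± 60 in whole cell libraries (mean ± SD, n = 9 libraries), beside 87.8 ± 39.1 and 435 ± 189.9 for Rpl3. The level of Rps23-ps1 was 0.932 ± 1.14 and 27.4 ± 13.9, against 85.6 ± 49.2 and 870.0 ± 423 for Rps23.

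The Pisd copies and Fgfr3-ps, a copy of a fibroblast growth factor receptor gene, were above their parent in both compartments. Pisd-ps1 had an FPKM of 76.2 ± 15.4 in nuclear and 60.2 ± 14.9 in whole cell libraries, and Pisd-ps2 had 66.4 ± 19.3 and 44.3 ± 14.2. The Pisd locus had 27.1 ± 5.42 and 22.9 ± 2.61, and it is joined with Gm20671, Gm43695 and Prr14l, so that its length and reads are shared. Fgfr3-ps had 9.47 ± 7.29 and 8.79 ± 4.86 beside 3.60 ± 2.91 and 5.07 ± 2.66 for Fgfr3. The parents of C4bp-ps1 and Dnmt3l-ps1 were listed at 0 in all libraries.

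Other copies lay below their parents per length. Dnmt3a-ps1 stood at 2.49 ± 1.02 and 0.570 ± 0.474 beside 14.9 ± 5.20 and 15.9 ± 2.94 for Dnmt3a, whose log2 change was -0.49. Gpr137b-ps had 8.40 ± 2.68 and 3.74 ± 1.40 beside 9.67 ± 0.939 and 9.47 ± 3.58 for Gpr137b (0.58), and Kpna2-ps 10.4 ± 2.83 and 5.70 ± 2.87 beside 34.3 ± 10.7 and 45.7 ± 11.2 for Kpna2 (-0.64).

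Of the pathway of Pisd, phosphatidylserine and phosphatidylethanolamine synthesis, 9 of 10 genes were tested. In nuclear libraries Etnk1 (0.59), the ethanolamine kinase, and Pisd (0.32) were called higher, and the phosphatidylserine synthases Ptdss1 (-1.05) and Ptdss2 (-0.62) lower. None of the 9 was called in a contrast between treatments.

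Pseudogenes inside an intron were set beside their hosts. Among 23 pairs of a tested locus and a tested gene in whose intron it lies, the pseudogene locus was above 0 in 22 and above its host in 20, with a median log2 change of 1.05 against 0.38 for the hosts, of which 7 were below 0. In direction alone 82.2% of all 73 tested pseudogene loci and 56.6% of all tested loci were above 0. Some hosts recur, Dnmt3l-ps1 is paired with both Itgav and Gm13684, and this grouping was made after the values were seen. The pairs mix units on the strand of the host with units on the other strand, such as Rpl15-ps2 in Tcf12. They were not split by strand. Fgf14 had a log2 change of 0.76 ± 0.11 beside Olfr277-ps1 at 1.05, Ranbp17 0.61 ± 0.13 beside Anp32-ps at 1.24, and Pdzd8 0.21 ± 0.13 beside Rps12-ps3 at 1.40. In each of these pairs the unit lies on the strand of the host.

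To ask whether miR-92b pulled these transcripts down, miR-92b was compared with Scr. The mature miR-92b, mmu-miR-92b-3p from RefSeq at chr3:89227126-89227147 on the minus strand of GRCm38.p6, is printed with its seed (bases 2 to 8) in capitals.
mmu-miR-92b-3p: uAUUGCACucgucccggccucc

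The match to the seed, GTGCAAT, was searched on the sense strand of the longest transcript. It was found in 1 of 68 tested pseudogene symbols (0.0108 per kb), in 48 of 1405 of all -ps symbols with a transcript (3.42%, 0.0387 per kb) and in 346 of 13441 annotated pseudogenes (2.57%, 0.0363 per kb). The tested symbol was the olfactory receptor copy Olfr1372-ps1, whose site lies at bases 6367 to 6373 of a 9812-base transcript and is shown with its neighbours, the match in capitals.
Olfr1372-ps1: aagttgctcaaggaGTGCAATcaggctca

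Olfr1372-ps1 gave 117, 145 and 82.3 in the control, 137, 176 and 34 with Scr and 150.2, 115 and 131 with miR-92b in the nuclear libraries. For Olfr1372-ps1, the whole cell libraries held 167, 121 and 65.5 in the control, 261, 110.4 and 108 with Scr and 191, 146 and 31.2 with miR-92b. In nuclear libraries the miR-92b counts of Olfr1372-ps1 lay within the range of Scr, and in whole cell libraries 2 of 3 did, with the third library below it. A seed match is a description of letters and not a shown site, and the units often held more sequence than the annotated transcript that was searched.

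No pseudogene locus was called between miR-92b and Scr. In nuclear libraries none of 73 passed, against 0% of all tested loci, and 2 had an unadjusted p under 0.05 (limma), while edgeR and DESeq2 called none. In whole cell libraries none passed, against 0.00642% of all tested loci, and 9 had an unadjusted p under 0.05 (limma). The median log2 change was 0.06 in nuclear (0.11 over all tested loci) and -0.10 in whole cell libraries (-0.01), where it was 0.09 (0.02) without the third miR-92b library. For the 12 most-read loci the change was between -0.38 and 0.19 in nuclear and between -2.25 and 0.53 in whole cell libraries, or between -0.17 and 0.88 without that library. The median SE over the 73 loci was 1.23, so that only large changes could have been seen in most of them.

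The smallest adjusted p in whole cell libraries was that of Gsdmcl-ps, 0.260 (limma), with counts of 22.8, 33.4 and 20.2 with Scr and no read in the 3 miR-92b libraries. DESeq2 on the recovered reads called this locus lower (adjusted p = 0.00455), while edgeR called none. In untransfected whole cells it had 0, 15.6 and 0.780, so the Scr libraries were above both other groups. The second opposite-strand locus of Gsdmcl-ps was more read (mean count 43.8). Its nuclear over whole cell log2 change was 2.91 with Scr and 3.02 with miR-92b, against 0.32 and 4.55 at the first locus.

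Against untransfected cells none of 73 loci was called with miR-92b in nuclear libraries, where 0% of all tested loci were, and none in whole cell libraries, where 0.00642% were. An unadjusted p under 0.05 (limma) was seen in 0 and 3 loci, and the medians were 0.04 and -0.46, beside 0.03 and -0.10 over all loci. Without the third miR-92b whole cell library the whole cell medians were 0.05 and -0.05. These comparisons share the miR-92b libraries with those against Scr. The difference between the 2 compartments in the effect of miR-92b over Scr was called in none of the 73, against 0.00642% of all loci, with 4 at an unadjusted p under 0.05 (limma) and a median of 0.32 beside 0.18, which became -0.08 beside 0.10 without that library. edgeR and DESeq2 called none of the 73 in these 3 contrasts.

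**Figure D5:**
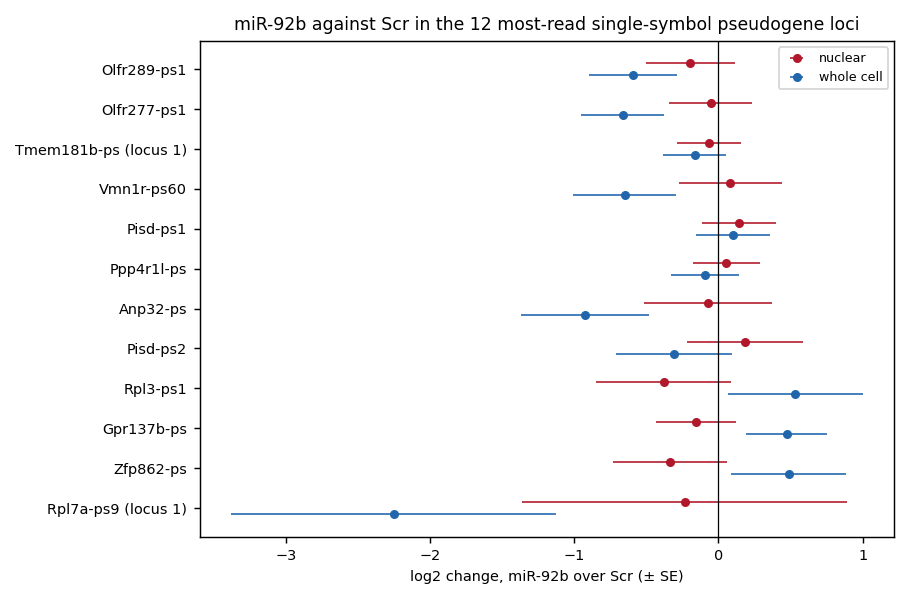
Log2 change of miR-92b over Scr with its SE in nuclear and whole cell libraries for the 12 most-read pseudogene loci with no other symbol. Nuclear changes lie between -0.38 and 0.19, and whole cell changes between -2.25 (the opposite-strand Rpl7a-ps9 locus, which had no read in 1 miR-92b library) and 0.53, with the lowest at -0.17 when that library is left out.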

How the data were processed

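RNA from streptavidin pull-downs of Neuro2A cells was sequenced in 18 libraries. The authors converted base calls with bcl2fastq 2.17, trimmed reads with Trimmomatic 0.30, aligned them to GRCm38 (mm10) with TopHat2 and assembled loci with Cufflinks. The sources used here give neither versions of TopHat2 and Cufflinks nor the treatment of reads that match several places. As deposited, a normalized count is a signal: the number of reads of a locus after division by a size factor of its library. The deposited FPKM values are relative to transcript length and mapped fragments. The authors' comparison tables (group FPKM, log2 fold changes, p-values and q-values of Cuffdiff) were not used.

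Whole reads were recovered for 634870 of 635205 values above 0 (99.9%, within 0.02 reads). The design had raw counts as first choice. Because the values are normalized, limma 3.58.1 (R 4.3.3) with a variance trend was fitted to log2(normalized count + 1), with all 6 groups in 1 model, over 15579 loci with a symbol and a mean of at least 10, two-sided, with Benjamini-Hochberg adjustment over all of them and a threshold of 0.05. A log2 change is on this scale and understates the change of low loci. edgeR 4.0.16 and DESeq2 1.42.0 on recovered reads, other pseudocounts, filters and scalings, and each library left out in turn were alternatives. The fits were tested on simulated data. Identities came from blastn 2.17.0 on GENCODE M21 transcripts.

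Groups and replicate numbers came from the labels. The loci and lists were chosen with earlier results of these data known. Named were the 12 most-read tested loci with no other symbol, up to 5 called loci per direction and comparison by size of change, and the Pisd copies, 25 in all, of which 1 is not reported here, though it is in all counts and medians; other loci named beside them were chosen after their values were seen. A mean count of 10 leaves counting error of a few reads per library, so low loci are imprecise. Intervals between replicates cover more than counting error.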

Additional observations from a re-analysis of the deposited data

How the results depend on the processing

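Over all treatments, the count of pseudogene loci higher in nuclear libraries (23) stayed between 17 and 26 and the lower count (6) between 4 and 9 under the other settings, though the number of loci tested differs between filters. No called locus changed sign in any of them. Without 1 library each in turn, the counts were 16 to 30 higher and 5 to 8 lower, and 20 of the 29 called loci kept the call in all 18 fits (15 higher, 5 lower).

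Within treatments, where each side has 3 libraries, counts moved more. For the control the higher count of 3 was 10 in a model of the compared groups alone, 7 with DESeq2, 1 with FPKM, 5 with a pseudocount of 8 and 5 after rescaling to the same median. For Scr the higher count of 1 was 4 with the compared groups alone and 2 with DESeq2, and the lower count of 4 was 2 and, with no filter, 1. For miR-92b the higher count of 10 was 1 with the compared groups alone and 6 with FPKM, and the lower count of 4 was 7 with DESeq2. With 1 library left out the ranges were 0 to 9 and 2 to 6 (control), 1 to 9 and 1 to 4 (Scr), and 4 to 20 and 1 to 5 (miR-92b). Between treatments all these counts were 0, apart from 1 locus (Gsdmcl-ps) called lower by DESeq2 for miR-92b against Scr in whole cells. The cause of these moves was not tested.

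Same-numbered libraries were closest to each other in 38 of 90 comparisons, each among the 3 libraries of a group. This cannot show whether libraries of the same number come from the same culture. The numbers were used as names of libraries only. With the replicate number as a block, the counts over all treatments were 22 and 6.

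The FPKM scaling shifted the median of all loci by -0.12 and the share of higher calls from 49.2% to 35.6%, and for pseudogene loci from 79.3% to 76%. Of 694 values of the 25 named loci under other settings, 625 kept direction and side of the threshold, 59 lost and 10 gained a call, and none reversed. The named loci that lost a call in some setting were Pisd-ps1, Kpna2-ps, Plk-ps1, Rpl15-ps2, Ppp4r1l-ps, Pisd-ps2, Rpl21-ps1 and Rpl9-ps6. For loci with a mean near 10, depth limits what could be seen.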
